A study of Mus musculus with 2 samples.

Results

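The 10 Hoxb genes of the mouse HoxB cluster, Hoxb1 to Hoxb9 and Hoxb13, were followed in distal forelimbs, the part of the limb bud that forms the digits. They were taken by gene symbol from a table of 23157 genes. Of the 10 genes, 8 were listed with reads, through 15 transcripts, whereas Hoxb1 and Hoxb13 had no listed transcript. The libraries came from E12.5 embryos of the strain C57Bl6CBAF1. The wild-type group was 1 library. The other group was also 1 library and carried HoxD Inv(TpSB1-Itga6), an allele in which a large segment of chromosome 2 is inverted, and its embryos were homozygous according to the methods of the study. Each library was made from 3 pairs of forelimbs, so that the embryos were pooled and no difference has a replicate check. The HoxB cluster lies on chromosome 11, outside the inverted chromosome, and the comparison therefore shows how a Hox cluster in trans differed between the libraries.

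Hox genes encode homeodomain transcription factors. They are arranged in 4 clusters, and members at the same position in different clusters are called paralogues. Genes at the Hoxb1 end are active early and far anteriorly in the hindbrain and neck, and genes toward Hoxb9 and Hoxb13 act later and more posteriorly in the trunk and tail. In the limb, the HoxA and HoxD clusters are the ones known for shaping the skeleton. HoxB genes are better known from the hindbrain, the spinal cord, the vertebral column, blood progenitors and the positioning of the forelimb along the trunk. Non-coding genes lie among the Hoxb genes, among them the microRNA genes Mir10a and Mir196a-1. MicroRNAs pair with messenger RNAs through their seed (bases 2 to 8) and lower their level or translation.

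On GRCm38 (GENCODE M21) the cluster runs from Hoxb13 at one end to Hoxb1 at the other, chr11:96194316-96368256, with every Hoxb gene on the plus strand. Hoxb9 occupies positions 96271457 to 96276595. A gap of 6.19 kb separates it from Mir196a-1 (96265164 to 96265265), which in turn lies 0.295 kb from the long intergenic RNA gene Gm53 (96251105 to 96264868). The mature miR-196a-5p is shown because its gene is the nearest neighbour of Hoxb9 on that side and because a Hoxb gene holds a well-known site for it. The sequence is that of RefSeq (GRCm38.p6), with the seed in capitals. Below it stands the stretch of the 3′ UTR of Hoxb8 (plus strand, chr11:96284888-96284909) that best matches it, with the bases opposite the seed in capitals.
miR-196a-5p: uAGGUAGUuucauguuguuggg
Hoxb8 site: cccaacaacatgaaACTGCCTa
Of the 22 positions of this site, 21 were complementary to the microRNA. The exception was a G opposite the U at base 5 of the microRNA, inside the seed. Only pairs of A with U or T and of G with C were counted as complementary, so this G-U pair was not. Among 21877 genes whose protein-coding transcripts were searched on the sense strand for a 22-base stretch, Hoxb8 was the only 1 (0.00457%) with at least 18 complementary positions. The other Hox genes reached 15 positions at most. This match is a description of the letters and no measurement of binding.

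Hox genes resemble each other in the homeobox, so a read could in principle fit several of them. The longest run of coding bases that Hoxb9 shares exactly with another Hox gene is 40 bases long and is shared with Hoxd9. It is shown, without capitals, because the main result rests on reads of Hoxb9.
Hoxb9 and Hoxd9: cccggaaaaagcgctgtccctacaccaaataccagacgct
The reads were 100 bases long, and for the other Hoxb genes the longest such run was between 17 bases (Hoxb13 with Hoxa4) and 52 bases (Hoxb4 with Hoxa6). A run of 100 bases or more with a transcript of another gene existed only on the opposite strand. It was 1158 bases for Hoxb3 and 953 bases for Hoxb2, both with the antisense gene Hoxb3os, and 100 bases for Hoxb5 with Hoxb5os. The libraries were strand-specific, but whether the counting used the strand is not given in the sources used here. The reads of Hoxb3 and Hoxb2 can therefore not be separated with certainty from those of Hoxb3os.

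The libraries held 9280660 reads (wild type) and 9466154 reads (inversion), recovered from the deposited values, of which 100% above the no-read value were whole multiples of 1 read. The wild-type sample is labelled wtFL and the inversion sample invDFL, while the signal column of the wild type is named wtDFL. That the wild type was distal forelimb rests on this column name and the methods of the study. Tissue labels were checked with marker genes. Tbx5, which marks the forelimb, had 1663 and 1959 reads, and Hoxa13, which marks the digit region, had 1084 and 1208. A whole forelimb contains the digit region, so reads of these genes cannot tell distal from whole forelimb. The hindlimb genes Tbx4 (430 and 394 reads) and Pitx1 (44 and 29) were not at 0. The pools differed in embryo sex markers, with 2607 and 13 reads of Xist and 826 and 2820 reads over 4 Y-linked genes, so that sex composition and genotype cannot be told apart here. In the bulk libraries, fewer cells of a type and less RNA per cell cannot be told apart either. All values below are reads, or normalized reads, meaning reads divided by the size factor of the library. Intervals are exact at 95%. They hold counting error alone, so they speak of the 2 libraries and not of the genotypes.

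The listed Hoxb genes had few reads in distal forelimbs, and among them Hoxb9 was the only 1 that differed between the libraries beyond counting error. The 8 listed genes summed to 99 wild-type reads and 168 inversion reads. Normalized, that was 0.923% of the reads of all Hox genes in wild type and 1.51% in the inversion. HoxA supplied 35.8% and 48.6%, HoxC 4.66% and 4.35%, and HoxD 58.6% and 45.5%. The share of Hoxb9 in the normalized HoxB reads was 36.4% (wild type) and 66.1% (inversion). The bar plot of reads shows this single tall gene beside a low remainder.

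**Figure D1:**
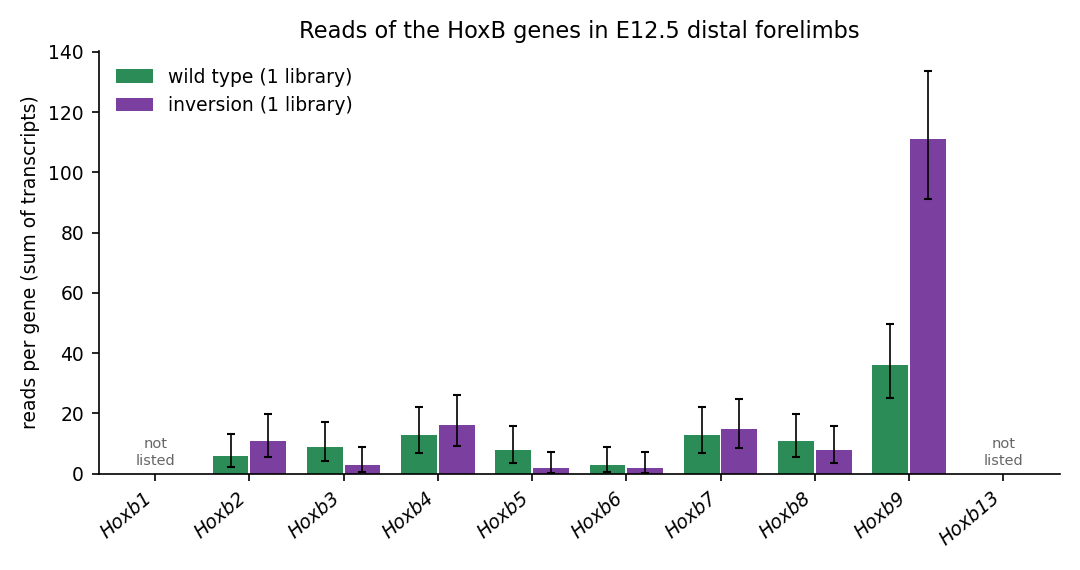
Reads per Hoxb gene in the wild-type library (green) and the inversion library (purple), 1 library each, as bars of reads summed over transcripts with exact 95% Poisson intervals. Hoxb9 had 36 and 111 reads, while no other gene exceeded 16 reads in either library, and Hoxb1 and Hoxb13 were not listed.

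Hoxb9, which patterns the ribs of the thorax, was represented by 36 wild-type reads and 111 inversion reads. In normalized reads this was 36.5 and 110, a ratio of 3.01 (95% interval 2.05 to 4.51), or a log2 ratio of 1.56 with a pseudocount of 1 added to both values. Its 2 listed transcripts, both protein-coding, differed alike. Hoxb9-201 had 31 and 95 reads, and Hoxb9-202 had 5 and 16. Both transcripts span nearly the same bases of the chromosome, so they are not independent measurements. Of all genes with reads in a library, 35.0% lay below Hoxb9 in wild type, and 47.8% did in the inversion. Among the 500 genes nearest to Hoxb9 in mean normalized reads (65.9 to 80.9), 98.2% had a lower log2 ratio, and 5.80% were at least 2-fold higher. These 500 include Hoxb9 itself. Without Hoxb9, the other Hoxb genes together had 63 and 57 reads, and their summed log2 ratio was -0.18 (95% interval -0.72 to 0.36). The sum over all Hoxb genes, with a log2 value of 0.72 (95% interval 0.36 to 1.10), thus depends on this gene for its direction.

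Of the non-coding genes next to Hoxb9, Gm53 was higher beyond counting error as well. Gm53, a long intergenic RNA gene that was chosen after its values were seen, had 32 wild-type and 117 inversion reads. This was a ratio of 3.57 (95% interval 2.39 to 5.45) and a log2 ratio of 1.80. Each of its 4 listed transcripts had more reads in the inversion. Gm53-204, the longest, had 10 and 57 reads, Gm53-201 had 14 and 31, Gm53-203 had 7 and 27, and Gm53-202 had 1 and 2. These transcripts overlap in position, so they are not independent measurements either. For Mir196a-1 there were 1 and 6 reads, a ratio of 5.85 with an interval from 0.710 to 269 that includes 1. Mature microRNAs have no poly(A) tail and were not measured in these libraries. Gm11539, a processed pseudogene farther toward Hoxb13, had 32 and 29 reads, and its ratio of 0.884 (95% interval 0.516 to 1.51) did not differ from 1 beyond counting error. The values higher beyond counting error on this side were thus those of Hoxb9 and Gm53, while Mir196a-1 was not resolved at its depth.

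Among the genes of the middle of the cluster, Hoxb7 and Hoxb8 are trunk and spinal cord genes, Hoxb8 being known for its role in the dorsal spinal cord and in grooming behaviour. Hoxb8, the neighbour of Hoxb9 at a gap of 5.31 kb, had 11 wild-type and 8 inversion reads (ratio 0.709, 95% interval 0.248 to 1.94). Its interval lies wholly below that of Hoxb9. Hoxb8-201, the transcript in which the miR-196a site was found, had 5 reads in each library, Hoxb8-203 had 5 and 2, and Hoxb8-202 had 1 and 1. For Hoxb7 there were 13 and 15 reads, and the log2 ratio was 0.16, with an interval that includes 0. Hoxb6 had only 3 and 2 reads over 2 transcripts. Hoxb6 to Hoxb8 together had 27 and 25 reads, and a difference was not detectable at this depth (log2 ratio -0.14, 95% interval -0.99 to 0.69).

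Toward the anterior end, Hoxb5, which takes part in placing the forelimb along the trunk, had 8 wild-type and 2 inversion reads. The ratio of 0.244 has an interval from 0.0252 to 1.22. Hoxb4, known for its use in expanding blood stem cells, had 13 and 16 reads from a single transcript (ratio 1.20, 95% interval 0.541 to 2.71). Hoxb3, a gene of the hindbrain and pharyngeal arches, had 9 and 3 reads over 3 transcripts. Its ratio was 0.325 with an interval from 0.0566 to 1.30. Hoxb2, which acts in hindbrain segments, had 6 and 11 reads (ratio 1.79, 95% interval 0.606 to 5.89). The directions were mixed, and each of these intervals includes 1. Hoxb2 to Hoxb5 summed to 36 and 32 reads, with a log2 ratio of -0.20 (95% interval -0.94 to 0.52).

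The antisense gene Hoxb3os, whose exons cover 52.9% of the exon bases of Hoxb3 and 27.3% of those of Hoxb2, had 11 and 22 reads. Its ratio was 1.95 with an interval from 0.907 to 4.45, and it was thus not distinguishable from 1. The values of Hoxb3 and Hoxb3os thus went in opposite directions, with neither beyond counting error. Of the other antisense genes of the cluster, Hoxb5os (listed under an older symbol and found by its transcript identifier) and Gm11536 had 0 wild-type reads and 1 inversion read each. No transcript of Mir10a was listed. None was found under the symbol Prac either, but GENCODE M21 also lacks this symbol, so the gene may stand under another one.

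Hoxb1, the marker of a hindbrain segment, and Hoxb13, which acts in the tail and the urogenital tract, close the cluster at either end. The table lists only transcripts with at least 1 read in 1 of the libraries, since 0 of its 64053 transcripts lacked reads in both, and no level or limit is therefore given for these 2 genes. Of the Hoxb13 paralogues, Hoxd13 had 2264 and 1522 reads, Hoxa13 had 1084 and 1208, and Hoxc13 had 182 and 192. Hoxd1, a paralogue of Hoxb1, had 1 and 0 reads. Per kb of transcript, the normalized level of Hoxd13 was 923 in wild type and that of Hoxd1 was 0.544.

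The plot of ratios along the chromosome sets the cluster against its neighbours. Beyond Hoxb1, Snx11, Cbx1, Nfe2l1, Copz2 and Cdk5rap3 passed the filter of a mean of at least 10 normalized reads, with log2 ratios from -0.10 to 0.19. Cbx1, which encodes the heterochromatin protein HP1 beta, had 1071 and 1134 reads. Skap1, the nearest gene on this side, had 4 and 2 reads. Beyond Hoxb13, Ttll6 and Calcoco2 had 1 read in each library, and Ube2z, Snf8 and Igf2bp1 had log2 ratios from -0.03 to 0.04. The intervals of 2 flanking genes left out 0, in opposite directions. Atp5g1, a subunit gene of the mitochondrial ATP synthase, had 167 and 231 reads (log2 ratio 0.43, 95% interval 0.14 to 0.73), and Nfe2l1, a transcription factor gene, had 2485 and 2371 (-0.10, -0.19 to -0.02). No flanking gene that passed the filter was 2-fold different.

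**Figure D2:**
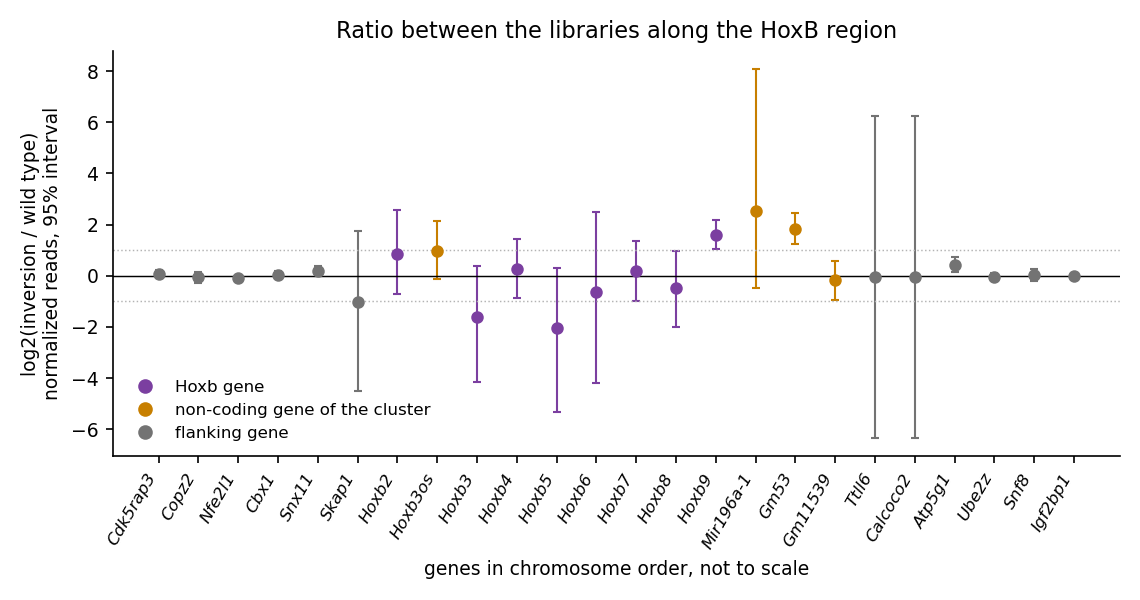
Inversion over wild-type ratio (log2, normalized reads) for genes in chromosome order from the side of Hoxb1 (left) to the side of Hoxb13 (right), not to scale, as points without a pseudocount from 1 library each, with exact 95% intervals of counting error and dotted lines at 2-fold. The intervals of Hoxb9 and Gm53 lie wholly above the upper dotted line, and those of the other Hoxb genes cross 0.

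Seen against all genes, 3 Hoxb genes (Hoxb4, Hoxb7 and Hoxb9) passed the filter and 5 listed ones did not. Hoxb9 was the 1 gene of the 3 that exceeded wild type by 2-fold or more, as did 668 of 16756 genes (3.99%). None of the 3 (0) was 2-fold lower, against 81 of all genes (0.483%). The 3 genes had a median log2 ratio of 0.25, beside -0.02 over all genes that passed. Hoxb3 and Hoxb5 were more than 2-fold lower, but below the filter. When the recovered reads of both libraries were compared by an exact binomial test, which is no test of the genotypes, Hoxb9 was the only Hoxb gene called. At an adjusted p of 0.05 (Benjamini-Hochberg) it called 1953 of 23157 genes (8.43%) higher and 1160 (5.01%) lower.

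**Figure D3:**
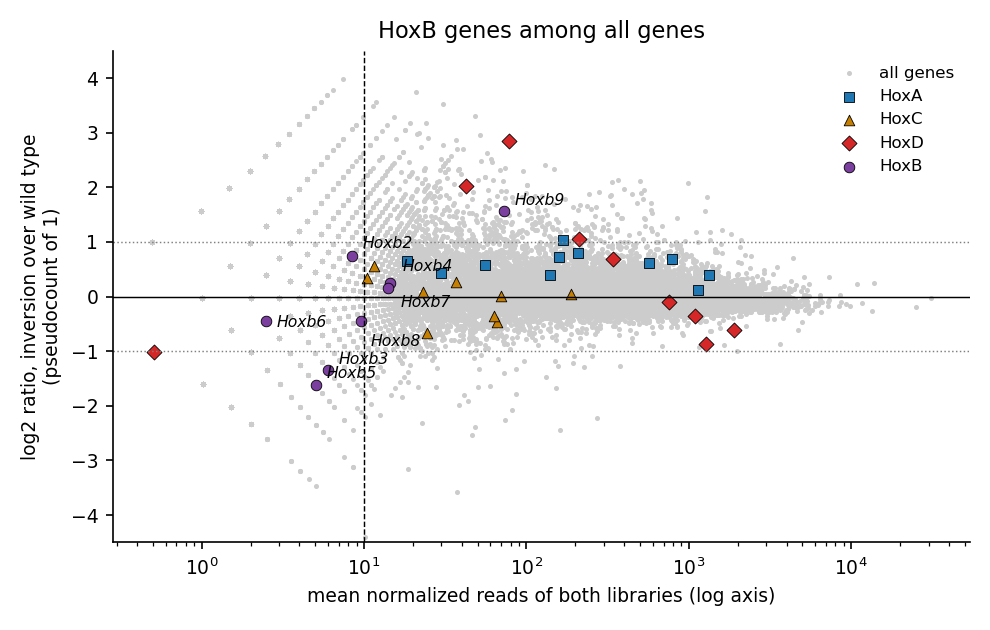
Log2 ratio of inversion over wild type (pseudocount of 1) against the mean normalized reads of both libraries on a log axis, with 1 point per gene, the Hox clusters in colour, a dashed line at the filter (mean of 10) and dotted lines at 2-fold. Among the labelled HoxB genes Hoxb9 lies farthest right, at a mean of 73.0 and a log2 ratio of 1.56, and 5 of the genes lie left of the filter.

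Levels of different genes were compared as normalized reads per kb of the longest listed transcript. In wild type, Hoxb9 was highest at 14.2 per kb (95% Poisson interval 9.92 to 19.6), but its interval overlapped that of Hoxb7 at 10.2 (5.43 to 17.4). Hoxb4 (5.13), Hoxb5 (4.27), Hoxb8 (4.23), Hoxb2 (3.73), Hoxb3 (2.86) and Hoxb6 (1.55) followed, with overlapping intervals between each gene and the next. In the inversion, Hoxb9 stood at 42.6 per kb (35.0 to 51.3), clear of Hoxb7 at 11.5 (6.42 to 18.9). Hoxb2 (6.67) and Hoxb4 (6.16) came next, then Hoxb8 at 3.0. Hoxb5, Hoxb6 and Hoxb3 lay between 0.929 and 1.04. Hoxb9 and Hoxb7 thus held the first 2 places in both libraries. The interval of Hoxb7 overlapped that of the next gene in both, Hoxb4 in wild type (2.73 to 8.77) and Hoxb2 in the inversion (3.33 to 11.9). Below Hoxb7, the intervals of each gene and the next in order also overlapped in both. Of the genes below Hoxb7 in the inversion, Hoxb2 (3.33 to 11.9) and Hoxb4 had intervals above that of Hoxb3 (0.192 to 2.71), and all other pairs overlapped.

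Paralogues of other clusters were mostly more abundant. Of 16 paralogues of the 8 listed Hoxb genes, 14 had a higher level per kb than their Hoxb gene in wild type, and in the inversion 15 did. The exceptions in wild type were Hoxc5 and Hoxc9, and the one in the inversion was Hoxc9. These counts use point values. In wild type, intervals overlapped for Hoxd3 with Hoxb3, Hoxa4, Hoxc4 and Hoxd4 with Hoxb4, Hoxc8 with Hoxb8, and both exceptions. In the inversion they overlapped for Hoxa4 and Hoxc4 with Hoxb4, Hoxc5 with Hoxb5, and Hoxc8 with Hoxb8. With transcript lengths weighted by reads, Hoxc8 (4.88 per kb) lay below Hoxb8 (5.93) in wild type. Among 37 listed Hox genes, Hoxb9 ranked 21 (wild type) and 17 (inversion), and the other Hoxb genes ranked between 25 and 36. The plot of levels by paralogue group shows HoxB as a low line near the lower HoxC genes. HoxA, HoxC and HoxD had higher levels toward group 13, without a steady rise. In wild type, HoxC reached 74.9 per kb at Hoxc13.

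**Figure D4:**
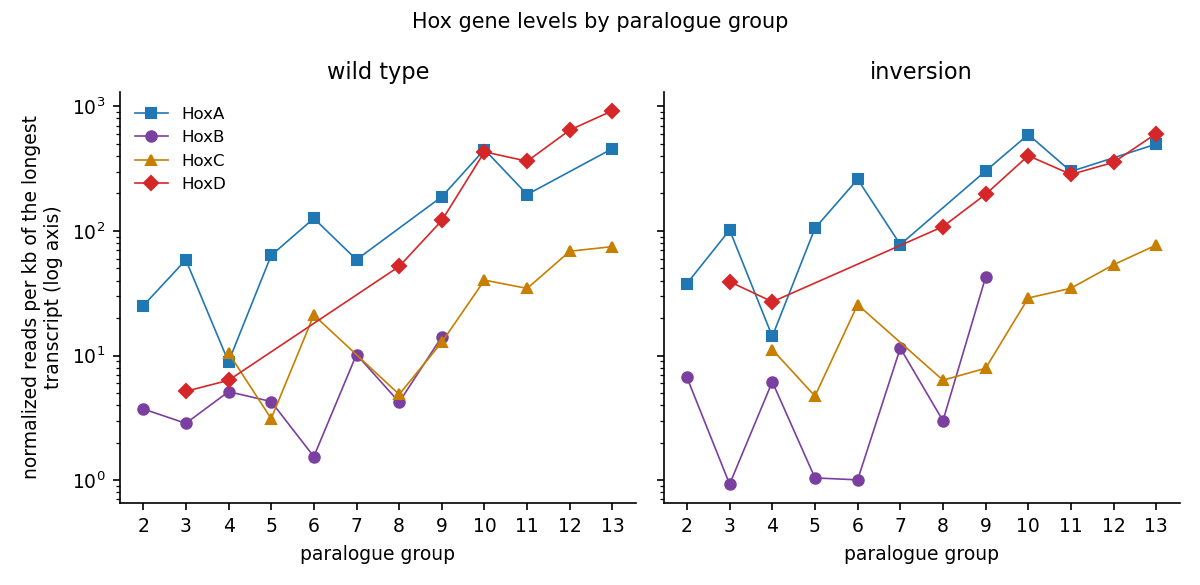
Normalized reads per kb of the longest listed transcript (log axis) by paralogue group, from 2 to 13, for the 4 Hox clusters, in wild type (left) and the inversion (right), 1 library each, with lines joining the genes of a cluster and genes without reads left out. In group 9, Hoxb9 moved from 14.2 to 42.6 per kb, and in wild type it lay close to Hoxc9 at 12.8.

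Within paralogue group 9, whose members act in the trunk and the early limb bud, the ratio of Hoxb9 was the highest. Hoxa9 had 600 and 990 reads (log2 ratio 0.69, 95% interval 0.54 to 0.84), and Hoxd9 had 256 and 426 (0.70, 0.47 to 0.93). Hoxc9, with 30 and 19 reads, had a log2 ratio of -0.67 whose interval from -1.61 to 0.18 includes 0. The interval of Hoxb9, from 1.03 to 2.17, lies above each of the 3. Among the HoxA paralogues of the other listed Hoxb genes, Hoxa2, Hoxa3, Hoxa5, Hoxa6 and Hoxa7 had intervals above 0, and Hoxa4, with 14 and 23 reads, did not. The HoxD paralogues Hoxd3 (18 and 140 reads, log2 ratio 2.86, 95% interval 2.21 to 3.72) and Hoxd4 (16 and 70 reads, 2.03, 1.29 to 2.98) had higher ratios than Hoxb9. The interval of Hoxd3 lies above that of Hoxb9, whereas that of Hoxd4 overlaps it. Hoxd8 had 135 and 289 reads (1.06, 0.76 to 1.37). Hoxa3 had a log2 ratio of 0.79 (95% interval 0.50 to 1.09), Hoxa5 one of 0.72 (0.39 to 1.07) and Hoxa6 one of 1.03 (0.71 to 1.38). Among genes that passed the filter, 11 of 11 in HoxA had higher values, 6 of 9 in HoxC and 4 of 8 in HoxD, beside 46.6% of all genes.

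HOX proteins bind DNA together with PBX, MEIS and PKNOX cofactors. Of the 9 cofactor genes, all of which passed the filter, 3 had higher and 6 lower values, with 0 beyond 2-fold and a median log2 ratio of -0.09. Meis2 had 515 and 417 reads (log2 ratio -0.34, 95% interval -0.53 to -0.15), and Pknox2 had 444 and 559 (0.30, 0.11 to 0.48). Of the regulators that act before trunk Hox genes in the embryo, Gdf11 had 1098 and 1106 reads and Cdx1 had 4 and 0, while Cdx2 and Cdx4 had no listed transcript.

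Markers of other cell types were set beside Hoxb9, since HoxB genes are active in trunk tissue, muscle precursors, nerves and blood. The 8 muscle genes summed to 745 wild-type and 1197 inversion reads, a log2 ratio of 0.65 (95% interval 0.51 to 0.78). Of these, 7 were higher, among them Myog (155 and 268 reads) and Pax7 (7 and 36), and Pax3 was lower (26 and 20). Of the 6 genes of trunk somites and body wall, the 5 listed ones summed to 1972 and 2392 reads (log2 ratio 0.24, 95% interval 0.16 to 0.33). Most of these reads were those of Tbx18 and Pax9, and bulk libraries do not show which tissue they came from. All 4 genes of this list that passed the filter had higher values, namely Tbx18 (1247 and 1532 reads), Pax9 (614 and 727), Meox1 (88 and 100) and Tbx6 (11 and 29). Pax1, below the filter, had 12 and 4 reads, and Uncx was not listed. Of the 8 genes of neurons and spinal cord, the 6 listed ones summed to 170 and 161 reads. Sox1 and Lhx3 were not listed, Olig2 had 2 and 3 reads, and Nkx6-1 had 2 and 1. Schwann cell and neural crest genes summed to 1044 and 1127 reads, macrophage genes to 1167 and 1184, endothelial genes to 4266 and 4081, and erythroid genes to 27807 and 24495. Limb ectoderm genes summed to 5019 and 4436 reads, chondrogenic genes to 12702 and 15272, and distal limb genes to 9848 and 9010. Of the 6 chondrogenic genes, 4 were higher, among them Col2a1 (6296 and 8320 reads). The other 2, Sox6 (1821 and 1581) and Sox9 (1823 and 1751), were lower. Proximal limb genes summed to 1372 and 1547 reads, with Shox2 higher (376 and 724) and the other 4 of 5 lower (median log2 ratio -0.29). The sums of the muscle, trunk, chondrogenic and proximal limb lists thus had intervals above no difference, in the direction of Hoxb9. Each of these lists also held genes with lower values, and in the proximal limb list most genes were lower. The intervals of the erythroid, endothelial, limb ectoderm and distal limb lists lay below no difference, and those of the neuronal, Schwann cell and macrophage lists included it. Of the 7 distal limb genes, 2 were higher and 5 lower, among the latter Hoxd13 (2264 and 1522 reads). The paper reports a loss of Hoxd13 transcripts in this inversion, so the distal limb sum is not a measure of cell types alone. The part of any of these cell types in the values of Hoxb9 and Gm53 was not tested.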

How the data were processed

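RNA-seq was analysed for 1 wild-type and 1 inversion library of E12.5 distal forelimbs. The authors mapped 100-base single-end, stranded, poly(A)-selected reads to NCBIM37 and counted them per transcript through HTSstation. The submitters' processing notes name Bowtie2 and give no version. The deposited signal columns hold the reads of each transcript over a library size factor, although the methods of the study name RPKM. Absent reads were entered as 0.5 by the authors and taken as 0. The deposited fold (a ratio), log2 fold, p-value and adjusted p-value columns are the authors' own comparison and were not used. The count of unmapped per-sample columns was 0.

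Dividing by the value of 1 read gave whole reads for 100% of the values (tolerance 0.006). A gene is the sum of transcripts that share a symbol on 1 chromosome. Log2 ratios of inversion over wild type used a pseudocount of 1, which understates changes of low genes, and counts of genes a mean of at least 10 and a 2-fold threshold. Design and test were set for 1 library per group, so no test between genotypes was made. Intervals of ratios are Clopper-Pearson, from the part of both libraries' reads that came from the inversion, and those of levels are Poisson. For positions, lengths and transcript types, 88.1% of transcripts were matched by identifier to GENCODE M21 (GRCm38). This build differs from the one the reads were mapped to, and no coordinate was converted. Alternatives were other scalings, pseudocounts, filters, thresholds, transcript choices, a binomial test and sums without single genes. The genes named are the members, genes of the cluster, flanking genes, cofactors, paralogues and marker lists. Members and lists were chosen with earlier results of these data known. An item withheld from the text is not reported here. The steps were tested on simulated data. The tools were Python 3.11.15 with matplotlib 3.10.9, scipy 1.17.1, pandas 2.3.3 and numpy 2.4.6.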

Additional observations from a re-analysis of the deposited data

How the results depend on the processing

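No paired analysis was possible because each genotype had a single library. All 62 values of single Hoxb genes and of Gm53 under other scalings, pseudocounts and transcript choices kept their direction and moved by less than the counting interval. The log2 ratio of the summed Hoxb genes was -0.18 without Hoxb9, and kept its sign when any other gene was left out and under each scaling, pseudocount and transcript choice. The median of the Hoxb genes was -0.14 without the filter, which adds 5 genes, and no Hoxb gene was left at a mean of at least 100. The number of Hoxb genes at least 2-fold higher was 0 at 4-fold, and also 0 at a mean of at least 100, and the number lower was 2 without the filter (Hoxb3 and Hoxb5). The median of the HoxD genes was -0.10 without the filter and -0.23 at a mean of at least 100, against 0.30. Over all genes, 1992 were higher and 1089 lower without the filter, 139 and 12 with a minimum mean of 100, 1577 and 341 at 1.5-fold, 113 and 13 at 4-fold, and 1953 and 1160 by the binomial test. Protein-coding transcripts gave 412 higher and 110 lower genes, against 668 and 81 with all transcripts. Below the first 2 places, the order of levels per kb changed with the length used. Depth limits every Hoxb gene other than Hoxb9.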
